A study of Capra hircus with 20 samples.

Results

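Fatty acids enter a fat cell or a muscle fibre in steps that are served by different proteins. Lipoprotein lipase (LPL) releases them from circulating triglycerides and ANGPTL4 inhibits that enzyme, CD36 and the transport proteins SLC27A1 and SLC27A4 (FATP1 and FATP4) take part in uptake at the membrane, and CAV1 builds the caveolae in which part of this uptake takes place. Inside the cell, the fatty acid-binding proteins FABP3, FABP4 and FABP5 carry the lipid, and ACSL1 joins it to coenzyme A, which keeps it in the cell and makes it usable. FABP4 is known as the adipocyte form and FABP3 as the heart and skeletal muscle form, whereas FABP5 is found in many tissues.

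These 10 genes were described in goat cells as the sum of the FPKM values of all transcripts of a symbol, where FPKM stands for fragments per kilobase of transcript, scaled to the mapped fragments of the library. Of the 20587 symbols in the mRNA table, 9 members were found by their own name. No row was named FABP4, and the adipocyte FABP was taken from the row LOC100861279 (gene ID 100861279), to which RefSeq gives the synonym A-FABP; it is called FABP4 below. The 10 genes held 27 transcripts, from 1 for FABP4, FABP5 and ANGPTL4 to 6 for CD36.

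The cells were preadipocytes isolated from the longissimus dorsi muscle and the subcutaneous fat of 7-day-old male Jianzhou Daer goats and used at passage 3. Intramuscular (IMPA) and subcutaneous (SPA) preadipocytes were harvested at day 0, and the cells named intramuscular (IMA) and subcutaneous adipocytes (SA) after 3 days in medium with oleic acid, a fatty acid that is itself a cargo of these proteins. The design compared each cell type before and after induction, with 5 libraries in each of the 4 groups, and the groups also allow the cell types to be compared at each stage. No group was cultured for 3 days without oleic acid, so oleic acid and time in culture cannot be told apart in any change with induction. The labels do not name the goat behind a replicate number, and all groups come from primary cultures without a sort, so a smaller share of cells of a type and less RNA per cell cannot be told apart.

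The study reported lipid droplets by Oil Red O staining in both cell types after induction, and a significantly lower mRNA level of Pref-1 than before it. DLK1, the gene of Pref-1, averaged 0.0114 and 0.0316 FPKM in IMPA and IMA, and 0.145 and 0.157 FPKM in SPA and SA. It stayed under 1 FPKM in every library, too low to be set beside that result. The labels were checked here against mRNA markers of cell types only. Of 11 adipocyte markers, 6 stayed under 1 FPKM in all 20 libraries, among them ADIPOQ and PLIN1, and PPARG, the master regulator of fat cell formation, averaged between 0.364 FPKM in IMA and 1.03 FPKM in SA. The adipocyte markers CIDEA and CEBPA were higher, at 27.8 and 9.23 FPKM in IMPA and 44.4 and 5.42 FPKM in IMA. In the subcutaneous groups they averaged 7.47 and 5.05 FPKM in SPA and 8.79 and 3.91 FPKM in SA. CIDEC went the other way, at 0.333 and 0.318 FPKM in IMPA and IMA against 4.65 and 4.35 FPKM in SPA and SA. PPARG, ADIPOQ, LIPE and DGAT2 also had higher means in the subcutaneous groups at both stages, and PLIN1 and LEP lower ones. All 11 summed to between 33.6 and 69.4 FPKM in the intramuscular and between 14.6 and 29.2 FPKM in the subcutaneous libraries. CIDEA had the highest mean of the 11 in every group. Skeletal muscle markers were high in the intramuscular cells, where the 9 markers present summed to between 2533 and 2929 FPKM in IMPA and between 8536 and 9156 FPKM in IMA, against 6.50 to 18.8 FPKM in SPA and 7.26 to 8.66 FPKM in SA. Stromal markers summed to between 4441 and 6986 FPKM in IMPA, 5926 and 6662 FPKM in IMA, and between 10237 and 11588 FPKM in the subcutaneous libraries. DCN held most of this gap, at 660 and 535 FPKM in IMPA and IMA against 5441 and 4120 FPKM in SPA and SA. COL3A1 had higher means in the intramuscular groups at both stages (4444 and 5242 against 4303 and 4975 FPKM), and the other stromal markers lower ones. Of 10 endothelial markers 9 stayed under 1 FPKM in every library, as did 7 of the 9 macrophage markers present. The FPKM values of the mRNA table summed to between 373889 and 413880 per library. The study's alignment summary lists a higher mapped share of reads for preadipocyte than for induced libraries in both cell types, most of all for IMPA. It also lists a higher share for intramuscular than for subcutaneous libraries at each stage. The mapped share can therefore not be told apart from the stage or from the cell type. By the study's read counts, SPA1, SA5 and all intramuscular libraries kept a larger share of their raw reads than the other subcutaneous libraries. Library handling can thus largely not be told apart from the cell type either, and SPA1 and SA5 were left out together as an alternative.

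Among the tested members, the cell types differed most in FABP3 and FABP4 and the stages most in CD36. On log2(FPKM + 1) values, limma was fitted to the 11432 genes whose mean reached 1 FPKM, with calls at an adjusted p under 0.05. It found that 7 of 9 tested members changed between IMA and IMPA, 4 upward and 3 downward. Of all genes tested, 60.1% were called in that comparison, 19.9% upward and 40.2% downward. Between SA and SPA, 5 of the 9 changed, 3 upward and 2 downward, beside 52.1% of all genes (26.1% upward and 26% downward). The interaction, which tests whether the change differed between the cell types, was called for 8 of 9 members, 5 positive and 3 negative, and for 55.3% of all genes (20.7% positive and 34.6% negative). The median log2 change of the 9 was 0.04 in the intramuscular and -0.03 in the subcutaneous cells, beside -0.09 and -0.01 for all genes tested. Counted over all 10 genes, the FPKM values of IMA and IMPA did not overlap for 7, beside 43.5% of all genes tested (14.3% with IMA higher and 29.2% lower). Those of SA and SPA did not overlap for 6, beside 38.8% (19.8% with SA higher and 19% lower). Changes were thus common among all genes, and the counts are not particular to the members. LPL had a mean of 0.961 FPKM, just below the filter, and was tested only with a lower one. CD36, with a mean of 1.54 FPKM, was the member nearest above it and passed through the IMA libraries, since the means of the other 3 groups were under 1 FPKM. FABP4 passed only through the intramuscular libraries, with means of 0.0926 FPKM in SPA and 0.120 FPKM in SA.

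**Figure D1:**
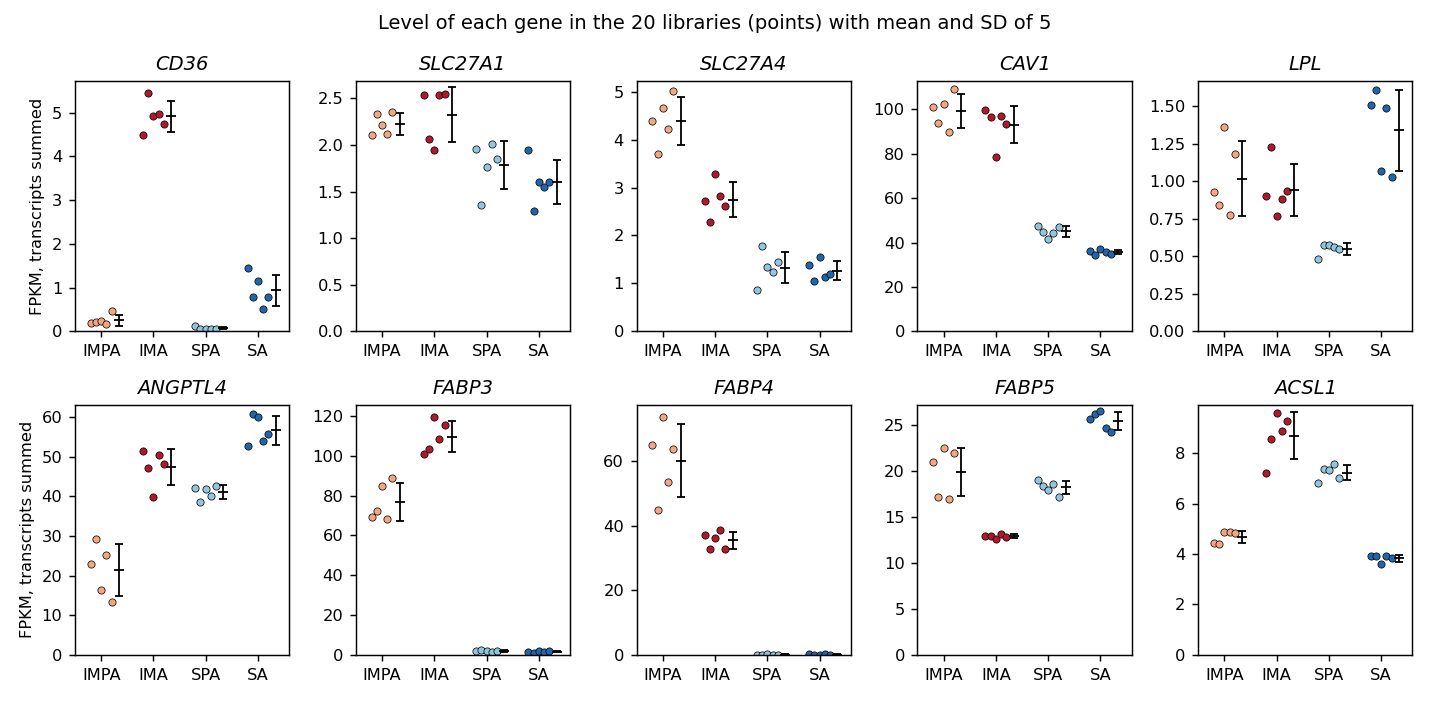
FPKM (vertical axes from 0, transcripts summed per gene) of each of the 10 genes in the 5 libraries of IMPA, IMA, SPA and SA (points), with the mean and SD beside them. FABP3 and FABP4 stand between 32.7 and 119.6 FPKM in every intramuscular library and at most 2.70 FPKM in every subcutaneous one, and CD36 is highest in IMA.

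CD36 rose in both cell types. This scavenger receptor binds long-chain fatty acids at the cell surface. In IMPA its FPKM values were 0.193, 0.204, 0.235, 0.158 and 0.470, and in IMA 4.48, 5.45, 4.91, 4.97 and 4.75. In SPA they were 0.117, 0.0567, 0.0572, 0.0579 and 0.0504, and in SA 1.44, 0.776, 1.15, 0.518 and 0.790. No group overlapped another, in the order IMA, SA, IMPA and SPA. The ratio of the mean FPKM was 19.5 for IMA to IMPA and 13.8 for SA to SPA, both over day 0 levels far below 1 FPKM where a ratio is uncertain. On the log2(FPKM + 1) scale, which understates the change of a low gene, the change was 2.24 (SE 0.07, limma adjusted p = 2.85e-10) in the intramuscular and 0.84 (SE 0.10, adjusted p = 2.62e-05) in the subcutaneous cells. With a pseudocount of 0.1 these changes were 3.89 and 2.57. Both subcutaneous groups averaged under the 1 FPKM of the filter. The intramuscular change was larger by 1.41 (SE 0.13, limma adjusted p = 1.45e-08), and by 1.32 with a pseudocount of 0.1 (adjusted p = 9.76e-04). This difference rests in part on subcutaneous levels under the filter. As ratios, 19.5 and 13.8, the changes lay closer together. After induction CD36 was 5.26 times as high in IMA as in SA. At day 0 it differed by 0.22 (SE 0.07, limma adjusted p = 0.00990), and that call was lost with quantile normalization (log2 difference 0.14, adjusted p = 0.0611), whereas a pseudocount of 0.1 gave 1.02.

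The rise of CD36 in IMA was carried by the RefSeq transcript NM_001285578.1, which had between 3.25 and 4.87 FPKM in the 5 IMA libraries and was listed at 0 in 4 of the 5 IMPA libraries. In SA that transcript lay between 0 and 1.35 FPKM, where it held most of the mean, and the rest was divided over 3 other transcripts that differed from library to library. With that transcript alone, neither the subcutaneous change of 0.58 on the log2 scale (limma adjusted p = 0.117) nor the day 0 difference of 0.11 (adjusted p = 0.517) was called.

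The transport proteins did not move with CD36. SLC27A4, an acyl-CoA synthetase that acts on long and very long chains, fell from 4.39 ± 0.495 FPKM (SD, n = 5 libraries) in IMPA to 2.75 ± 0.362 FPKM in IMA. The highest IMA library, at 3.29 FPKM, lay below the lowest IMPA library, at 3.69 FPKM, with a log2 change of -0.53 (SE 0.08, limma adjusted p = 1.46e-04). In SPA and SA it averaged 1.33 ± 0.330 and 1.26 ± 0.202 FPKM, and these groups overlapped (log2 change -0.03, SE 0.10, limma adjusted p = 0.788). The change differed between the cell types by -0.49 (SE 0.13, limma adjusted p = 0.00334). SLC27A4 was 3.31 times as high in IMPA as in SPA and 2.17 times as high in IMA as in SA. The intramuscular fall rested on the lesser of its transcripts: XM_018055877.1 averaged 1.22 FPKM in IMPA and 0.0726 FPKM in IMA, whereas XM_018055876.1 alone gave a log2 change of -0.17 that was not called (limma adjusted p = 0.447), and the difference between the cell types was not called with it either (-0.13, adjusted p = 0.665).

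SLC27A1, the transport protein best known from fat and muscle, was the steadiest of the 10 genes. Its group means lay between 1.60 ± 0.234 FPKM in SA and 2.33 ± 0.294 FPKM in IMA. Neither stage comparison was called, with log2 changes of 0.04 (SE 0.06, limma adjusted p = 0.604) in the intramuscular and -0.10 (SE 0.08, adjusted p = 0.315) in the subcutaneous cells. It was higher in the intramuscular cells at both stages, by 0.22 (SE 0.07, limma adjusted p = 0.0107) at day 0 and by 0.35 (SE 0.08, adjusted p = 0.00115) after induction. With quantile normalization the call at day 0 was lost (log2 difference 0.02, limma adjusted p = 0.742) and the later difference was 0.22 (adjusted p = 0.0226). Its transcripts were far less steady than their sum. Each of the 4 was listed at 0 in at least 7 libraries, and in libraries of the same group the whole of the signal stood in different transcripts: in IMA1 all 2.53 FPKM were given to XM_018051385.1 and in IMA5 all 2.55 FPKM to XM_018051384.1. A value of 1 transcript of SLC27A1 is therefore not a measure of the gene in these libraries.

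**Figure D2:**
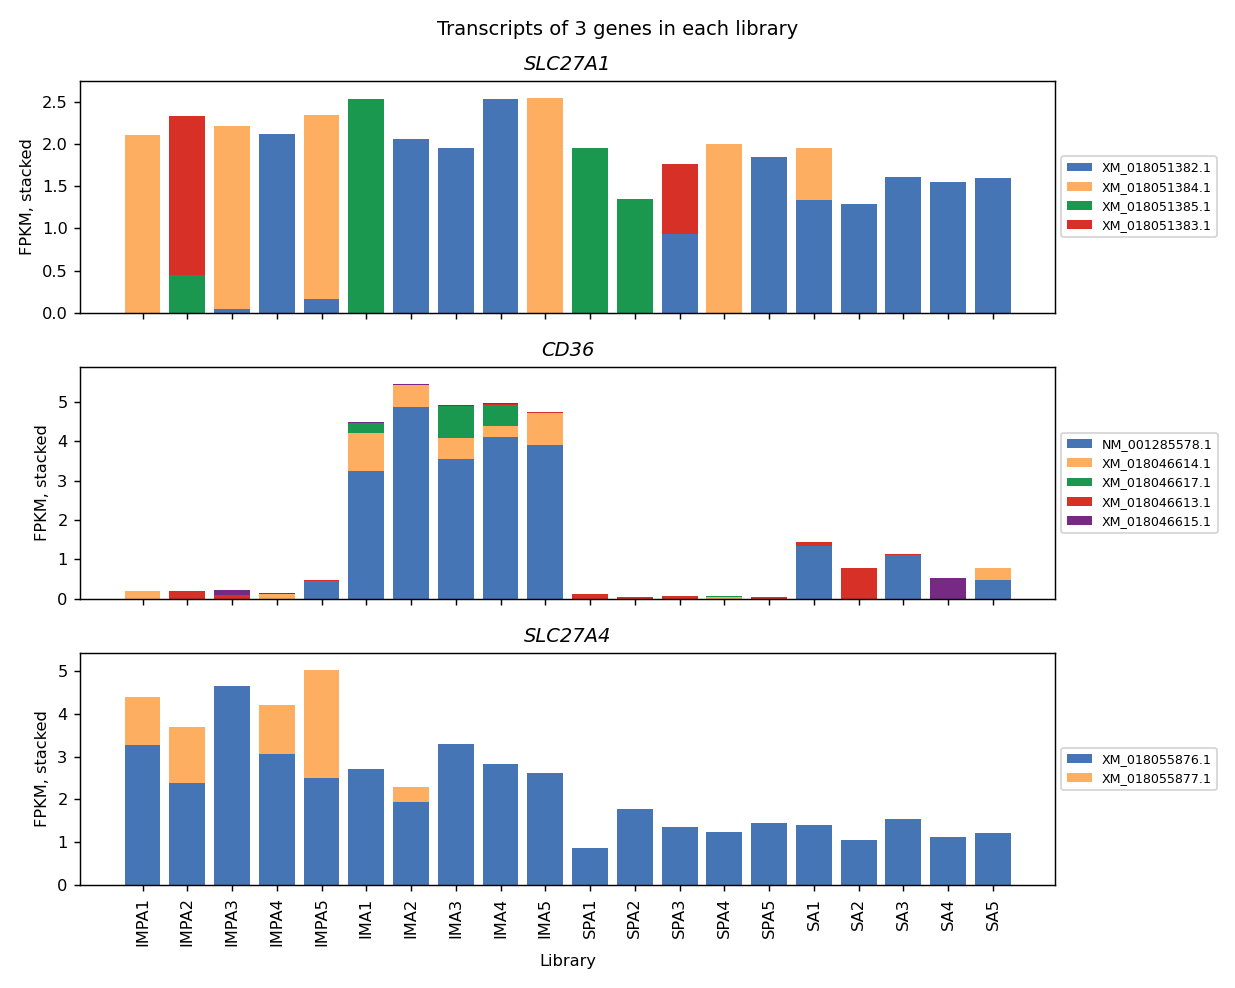
FPKM of the transcripts of SLC27A1, CD36 and SLC27A4 (colours), stacked per library for the 20 libraries along the horizontal axis. For SLC27A1 the stacks stay between 1.29 and 2.55 FPKM while the transcript that fills them changes within groups, whereas for CD36 the transcript NM_001285578.1 fills most of each IMA stack.

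CAV1, the main structural protein of caveolae, was among the most abundant members and set the cell types apart. It averaged 99.3 ± 7.52 FPKM (SD, n = 5 libraries) in IMPA and 93.1 ± 8.41 FPKM in IMA, against 45.0 ± 2.42 FPKM in SPA and 35.7 ± 1.00 FPKM in SA. Every intramuscular library was above every subcutaneous one, the lowest being IMA3 at 78.6 FPKM and the highest subcutaneous library SPA1 at 47.5 FPKM. The log2 difference was 1.12 (SE 0.05, limma adjusted p = 1.14e-09) at day 0 and 1.35 (SE 0.06, adjusted p = 4.14e-11) after induction. CAV1 fell in the subcutaneous cells by 0.33 on the log2 scale (SE 0.04, limma adjusted p = 2.37e-05), while the intramuscular change of -0.09 (SE 0.07, adjusted p = 0.254) was not called. The difference between these changes, 0.23 (SE 0.08, limma adjusted p = 0.0219), was no longer called without SPA1 and SA5 (0.20, adjusted p = 0.0616) or with the transcript XM_005679159.2 alone (0.10, adjusted p = 0.556). With that transcript alone, the subcutaneous fall of 0.20 was not called either (limma adjusted p = 0.102).

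LPL was low in all cells. Its FPKM values were 0.931, 0.838, 1.36, 0.771 and 1.18 in IMPA and 0.902, 1.23, 0.764, 0.877 and 0.937 in IMA. They were 0.481, 0.576, 0.576, 0.564 and 0.546 in SPA and 1.5, 1.61, 1.07, 1.49 and 1.03 in SA. The intramuscular groups overlapped, whereas every SA library was above every SPA library, with a ratio of the means of 2.44. When genes with a mean of at least 0.1 FPKM were tested, the subcutaneous change was 0.59 (SE 0.07, limma adjusted p = 4.55e-05) and the intramuscular one -0.05 (SE 0.09, adjusted p = 0.641). These changes differed by -0.64 (SE 0.12, limma adjusted p = 1.04e-04). Depth behind values near 1 FPKM is not known, because no counts were used. GPIHBP1, which binds LPL on capillary endothelium, stayed under 1 FPKM in every library.

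ANGPTL4, a secreted inhibitor of LPL whose gene responds to fatty acids through PPAR receptors, rose in both cell types. Its FPKM values were 22.9, 29.2, 16.4, 25.3 and 13.3 in IMPA and 51.5, 47.1, 39.9, 50.3 and 48.2 in IMA. They were 42.2, 38.52, 41.9, 39.996 and 42.6 in SPA and 52.7, 60.7, 60.0, 54.1 and 55.7 in SA. The stages did not overlap in either cell type, and IMPA lay below all other groups. The log2 change was 1.16 (SE 0.17, limma adjusted p = 1.33e-04) in the intramuscular and 0.45 (SE 0.05, adjusted p = 5.00e-06) in the subcutaneous cells. The intramuscular change was the larger one by 0.70 (SE 0.19, limma adjusted p = 0.00387). ANGPTL4 was lower in intramuscular cells at both stages, by 0.96 on the log2 scale at day 0 (SE 0.17, limma adjusted p = 1.93e-04). After induction the difference was -0.25 (SE 0.07, limma adjusted p = 0.00315), a call lost when all 4 groups shared a fit (adjusted p = 0.0946).

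IMPA3 and IMPA5 had the lowest ANGPTL4 of the IMPA libraries, and the highest FABP3, FABP5, SLC27A4, CAV1, LPL and CD36. In the study's alignment summary these libraries also have the highest mapped shares of reads in IMPA, and over the 5 libraries ANGPTL4 was lower the higher that share. The part of the mapped share in these levels was not tested. ANGPTL4 exceeded LPL in every library, by 23.1 ± 11.2 times (SD, n = 5 libraries) in IMPA, 51.3 ± 7.70 times in IMA, 75.2 ± 7.98 times in SPA and 43.9 ± 10.4 times in SA. The ratio of these mRNA levels was thus higher after induction than before in the intramuscular cells and lower after induction in the subcutaneous cells, without overlap in either. In the subcutaneous cells both genes rose, and the ratio fell with the rise of LPL from 0.549 to 1.34 FPKM. LPL was below the filter, and protein was not measured.

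**Figure D3:**
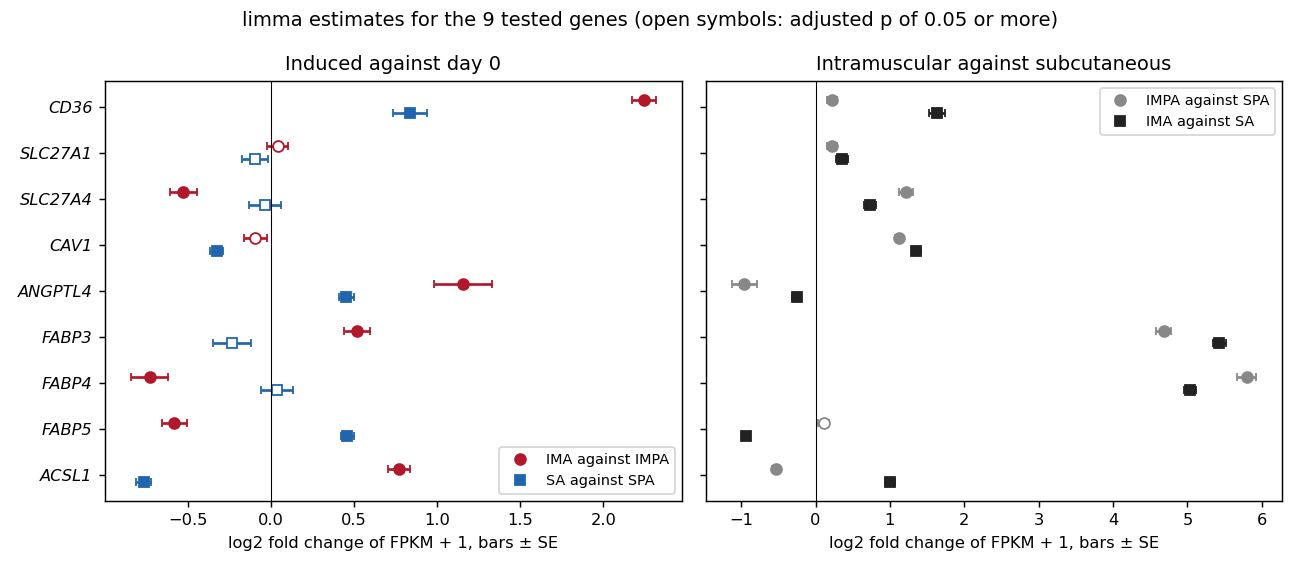
limma log2 fold changes of FPKM + 1 with their SE (horizontal axes) for the 9 tested genes, induced against day 0 on the left and intramuscular against subcutaneous on the right. Filled symbols have an adjusted p under 0.05; ACSL1 and FABP5 lie on opposite sides of 0 in the 2 cell types, and FABP3 and FABP4 are 4.68 to 5.80 higher in the intramuscular cells.

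Of the tested members, the binding proteins FABP3 and FABP4 gave the widest differences between the cell types. FABP3 had FPKM values of 69.3, 72.4, 84.7, 68.0 and 88.9 in IMPA and of 101.0, 103.3, 119.6, 108.6 and 115.2 in IMA. In SPA it had 1.88, 2.70, 1.95, 1.54 and 2.13 FPKM, and in SA 1.68, 1.05, 2.03, 1.41 and 1.77 FPKM. The intramuscular groups were far above the subcutaneous ones, by 37.6 times at day 0 (log2 difference 4.68, SE 0.10, limma adjusted p = 4.88e-13) and by 69.0 times after induction (5.43, SE 0.09, adjusted p = 7.27e-16). FABP3 rose in the intramuscular cells, with no overlap (log2 change 0.52, SE 0.08, limma adjusted p = 1.42e-04). In the subcutaneous cells the change of -0.23 was not called (SE 0.11, limma adjusted p = 0.105), though it was without SA3 (-0.29, adjusted p = 0.0499). The changes differed by 0.75 (SE 0.14, limma adjusted p = 1.73e-04). Of the 9 skeletal muscle markers present, 8 also had a higher mean in IMA than in IMPA, and MYOD1 a lower one. In the subcutaneous groups 8 of them averaged at most 1.35 FPKM and TNNT3 up to 6.93 FPKM. Their part in the differences of FABP3 was not tested.

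FABP4 was also a gene of the intramuscular libraries, but it moved the other way. Its FPKM values were 65.0, 44.8, 73.8, 53.6 and 63.7 in IMPA and 37.0, 32.9, 36.2, 38.6 and 32.7 in IMA. Every IMA library lay below every IMPA library, with a log2 change of -0.73 (SE 0.11, limma adjusted p = 1.45e-04). In the subcutaneous cells it was listed at 0 in 3 SPA and 2 SA libraries, and the other values reached 0.354 FPKM in SPA and 0.333 FPKM in SA. A gene known as a marker of adipocytes was thus at or near 0 in the libraries labelled subcutaneous adipocytes, and no fold is given against them. The log2(FPKM + 1) difference between the cell types was 5.80 (SE 0.13, limma adjusted p = 5.46e-13) at day 0 and 5.03 (SE 0.08, adjusted p = 5.27e-16) after induction. Their size is set by the pseudocount, and a pseudocount of 0.1 gave 8.57 and 7.56. FABP4 also passed the filter only through the intramuscular libraries, so its calls against the subcutaneous ones add nothing to the levels. The changes with induction differed by -0.77 (SE 0.16, limma adjusted p = 3.43e-04). With a pseudocount of 0.1 this difference was larger, at -1.003, but not called (limma adjusted p = 0.128). MYOD1 moved the same way, but it was the only skeletal muscle marker present with a lower mean in IMA than in IMPA, and all others had a higher one. Of the adipocyte markers with intramuscular means over 1 FPKM, CEBPA fell from 9.23 to 5.42 FPKM, while CIDEA and GPD1 had higher means in IMA. The part of these genes in the change of FABP4 was not tested.

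FABP5 was present at similar levels at day 0 and changed in opposite directions. Its FPKM values were 21.0, 17.1, 22.5, 17.0 and 21.9 in IMPA and 13.0, 12.9, 12.6, 13.1 and 12.9 in IMA. They were 19.0, 18.4, 18.0, 18.6 and 17.2 in SPA and 25.7, 26.2, 26.5, 24.7 and 24.3 in SA. IMPA and SPA overlapped (log2 difference 0.11, SE 0.08, limma adjusted p = 0.203), and the stages did not overlap in either cell type. FABP5 fell in the intramuscular cells by 0.58 on the log2 scale (SE 0.08, limma adjusted p = 4.46e-05) and rose in the subcutaneous cells by 0.46 (SE 0.04, adjusted p = 8.50e-07). The changes differed by -1.04 (SE 0.09, limma adjusted p = 1.94e-09), and SA ended 1.98 times as high as IMA.

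FABP4 and FABP5 are neighbours in the goat genome: in RefSeq's gene table of assembly ARS1.2 only 3 genes lie between them, 2 of them protein-coding. Both of these, FABP9 and LOC102180330, reached at most 0.170 FPKM in a library. In the subcutaneous cells a gene at or near 0 and one between 17.2 and 26.5 FPKM thus stood a few genes apart.

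Because FPKM is a value per length, the binding proteins can be set against each other. Their sum was 156.7 ± 20.8 FPKM (SD, n = 5 libraries) in IMPA and 157.9 ± 7.92 FPKM in IMA, and 20.4 ± 0.746 FPKM in SPA and 27.2 ± 1.03 FPKM in SA. The intramuscular sum was thus alike at both stages while its makeup shifted: the share of FABP3 was 49.1% ± 3.57 in IMPA and 69.3% ± 2.04 in IMA, and that of FABP4 38.2% ± 3.40 and 22.5% ± 1.75, with no overlap for either. In the subcutaneous cells FABP5 held 89.6% ± 2.18 of the sum in SPA and 93.7% ± 1.24 in SA. These shares describe the same values as above and were not tested.

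**Figure D4:**
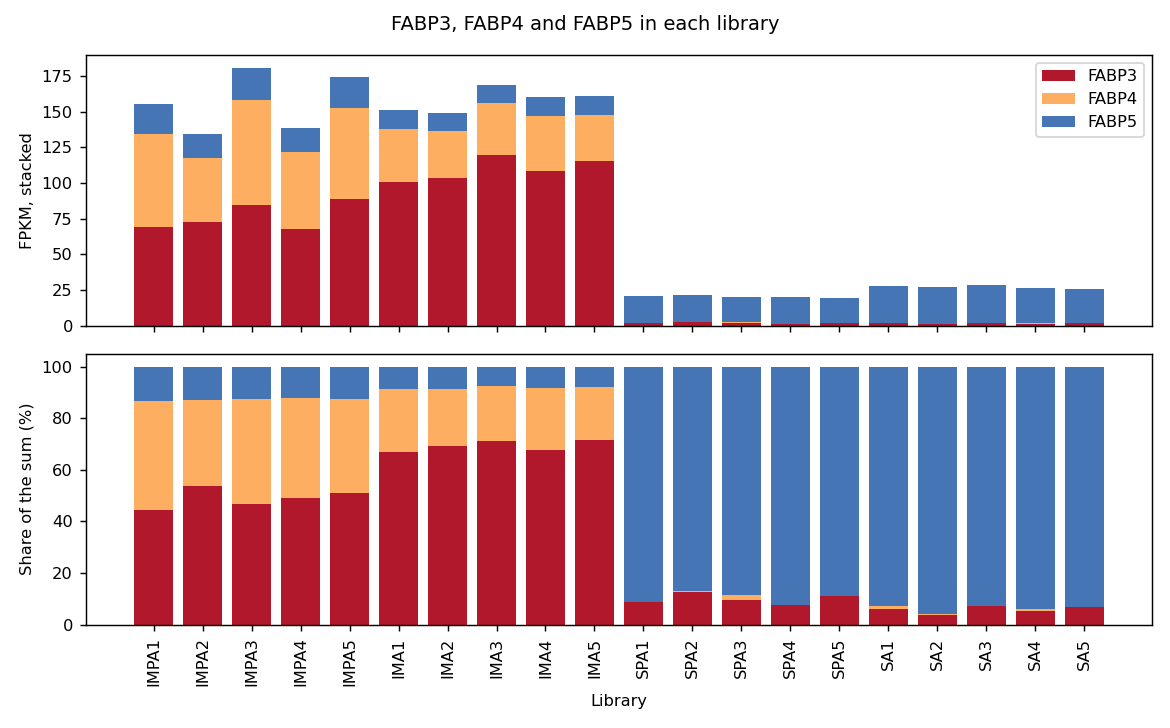
FPKM of FABP3, FABP4 and FABP5 stacked per library (upper panel) and as a share of their sum (lower panel, %), for the 20 libraries in the order IMPA, IMA, SPA and SA. The sums lie between 134.3 and 180.9 FPKM in the intramuscular and between 19.3 and 28.5 FPKM in the subcutaneous libraries, where FABP5 holds between 86.8% and 95.7%.

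ACSL1, the long-chain acyl-CoA synthetase linked to both fat storage and oxidation, changed by nearly the same amount in opposite directions. Its FPKM values were 4.43, 4.39, 4.86, 4.87 and 4.82 in IMPA and 7.21, 8.56, 9.58, 8.88 and 9.27 in IMA. They were 6.83, 7.38, 7.35, 7.58 and 7.01 in SPA and 3.92, 3.91, 3.59, 3.93 and 3.83 in SA. It rose in every IMA library over every IMPA library (log2 change 0.77, SE 0.07, limma adjusted p = 2.02e-06) and was lower in every SA library than in any SPA library (-0.77, SE 0.04, adjusted p = 3.21e-08). The difference of these changes, 1.54 (SE 0.08, limma adjusted p = 7.20e-13), was the largest among the 9 tested members. The cell types also changed places: ACSL1 was lower in IMPA than in SPA by 0.54 on the log2 scale (SE 0.04, limma adjusted p = 2.14e-07) and higher in IMA than in SA by 1.00 (SE 0.07, adjusted p = 6.25e-09). XM_018041881.1 held at least 89.4% of the gene's FPKM in every library, and its calls in both stage comparisons were also made with that transcript alone.

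At day 0, 8 of the 9 tested members differed between IMPA and SPA (6 higher in IMPA and 2 lower), beside 75.1% of all genes tested (42.3% higher and 32.9% lower). After induction all 9 differed between IMA and SA (7 higher in IMA and 2 lower), beside 72.4% of all genes (29% higher and 43.4% lower). Values did not overlap for 9 of the 10 genes at day 0, all but FABP5, beside 63.4% of all genes tested (35.9% with IMPA higher and 27.5% lower). After induction they did not overlap for 9, all but LPL, beside 58.6% (24% with IMA higher and 34.7% lower), though SLC27A1 was separated by less than 0.001 FPKM. The median log2 difference of the 9 was 0.22 at day 0 and 1.00 after induction, against 0.05 and -0.09 for all genes tested. These comparisons share their libraries with the stage comparisons. FABP4 and CD36 are counted in them, although they passed the filter only through the intramuscular and the IMA libraries.

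Of 54 further symbols for fatty acid handling, 49 were in the table and 30 were tested. The cavin genes were listed under older and newer symbols, and only the older ones were in the table. Between IMA and IMPA, 6 of the 30 rose and 16 fell, beside 19.9% and 40.2% of all genes tested. Between SA and SPA 8 rose and 13 fell, beside 26.1% and 26%. The median log2 change was -0.26 in the intramuscular and -0.04 in the subcutaneous cells, beside -0.09 and -0.01 for all genes tested. Most of these changes were small. The only gene of this list with a called log2 change of at least 1 was CAV3, the muscle form of caveolin, which rose from 11.4 ± 1.19 FPKM (SD, n = 5 libraries) in IMPA to 42.9 ± 2.77 FPKM in IMA (log2 change 1.82, limma adjusted p = 1.1e-09) and stayed at 0.0258 and 0.0123 FPKM on average in SPA and SA.

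Among the caveola proteins the most abundant was PTRF (cavin-1), which fell in both cell types, by 0.37 on the log2 scale in the intramuscular (limma adjusted p = 0.0018) and by 0.40 in the subcutaneous cells (adjusted p = 3.1e-07). CAV2, the partner of CAV1, rose in both, by 0.20 (limma adjusted p = 0.017) and 0.41 (adjusted p = 1.8e-06). In the other role groups the most abundant genes were SCARB2, DBI, SLC27A5, ACSL4, APOE, LRP1 and NR1H3. ACSL4, a synthetase that prefers arachidonic acid, had the same opposite directions as ACSL1: it rose from 37.2 ± 5.58 to 45.5 ± 2.54 FPKM in the intramuscular (log2 change 0.29, limma adjusted p = 0.014) and fell from 80.5 ± 3.23 to 44.8 ± 1.41 FPKM in the subcutaneous cells (-0.83, adjusted p = 1.8e-09). Not all synthetases did so, since ACSL3 and ACSL5 fell in the intramuscular cells by 0.43 and 0.56 (limma adjusted p = 2.2e-05 and 0.0013) and were not called in the subcutaneous ones. APOE, a ligand for lipoprotein receptors, rose in both cell types, by 0.59 (limma adjusted p = 3.5e-05) and 0.41 (adjusted p = 5.3e-06). DBI, the acyl-CoA-binding protein, fell in both, by 0.34 (limma adjusted p = 0.00011) and 0.17 (adjusted p = 0.0025). SCARB2, a lysosomal relative of CD36, fell by 0.11 in the intramuscular (limma adjusted p = 0.0088) and rose by 0.51 in the subcutaneous cells (adjusted p = 2.0e-07). SLC27A5 was not called in either stage comparison and averaged 0.597 FPKM in IMPA against 3.96 FPKM in SPA. LRP1, an endocytic receptor, and NR1H3 (LXR alpha) fell in the subcutaneous cells, by 0.45 (limma adjusted p = 0.012) and 0.36 (adjusted p = 0.00067), and were not called in the intramuscular ones.

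Of 15 genes known to respond to PPAR receptors or fatty acids, 13 were in the table and 11 were tested. In the intramuscular cells 6 rose and none fell, and 5 were not called; of all genes tested, 19.9% rose and 40.2% fell there. In the subcutaneous cells 4 rose and 3 fell, beside 26.1% and 26% of all genes. PDK4, a kinase that turns off pyruvate oxidation, rose from 1.33 ± 0.326 to 9.25 ± 0.759 FPKM (log2 change 2.15, limma adjusted p = 3.8e-09) and from 3.98 ± 0.258 to 9.11 ± 0.490 FPKM (1.02, adjusted p = 1.0e-08). PLIN2, a coat protein of lipid droplets, rose from 49.8 ± 12.5 to 165.8 ± 23.0 FPKM (log2 change 1.74, limma adjusted p = 2.5e-06) and from 256.6 ± 5.58 to 396.4 ± 17.6 FPKM (0.62, adjusted p = 2.7e-08). CPT1B, the muscle form of the enzyme that admits fatty acids to mitochondria, rose from 1.19 ± 0.131 to 5.81 ± 0.429 FPKM in the intramuscular cells (log2 change 1.63, limma adjusted p = 1.0e-09). In the subcutaneous cells it averaged 0.391 ± 0.107 FPKM in SPA and 0.225 ± 0.108 FPKM in SA. The fall of 0.18 called there (limma adjusted p = 0.039) thus lay between values under the filter. CD36 and ANGPTL4 thus rose beside PDK4 and PLIN2 in both cell types. On the log2(FPKM + 1) scale the intramuscular change was the larger for all 4 in the test of the interaction (limma adjusted p = 1.5e-08 for PDK4 and 1.1e-05 for PLIN2). For CD36, both subcutaneous means were under 1 FPKM.

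**Figure D5:**
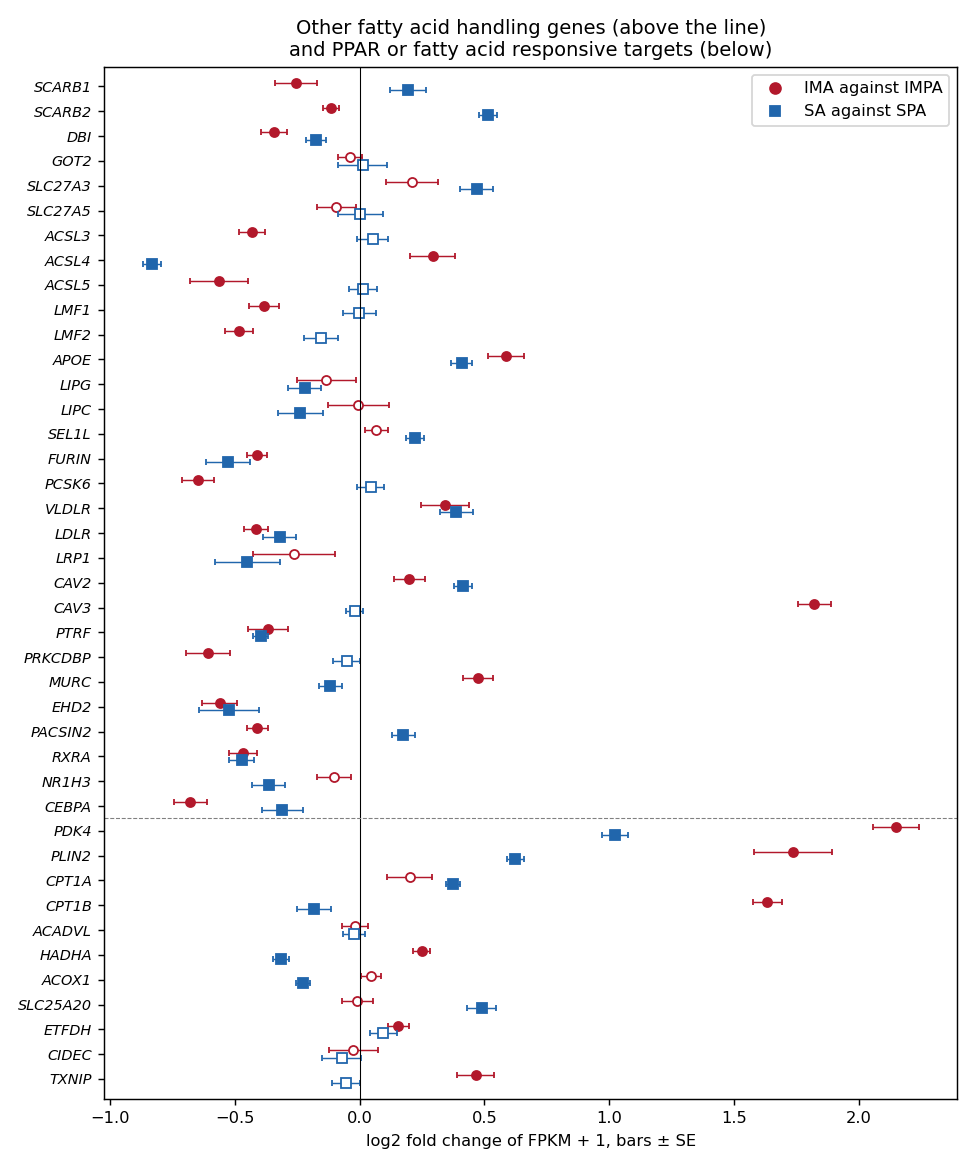
limma log2 fold changes of FPKM + 1 with their SE (horizontal axis) for the 30 tested fatty acid handling genes outside the 10 members and the 11 tested responsive targets, IMA against IMPA (circles) and SA against SPA (squares), filled where the adjusted p is under 0.05. PDK4, CAV3, PLIN2 and CPT1B are the genes with changes above 1.

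Genes with a pattern like that of a member were sought by the root mean square difference of centred log2(FPKM + 1) values over the 20 libraries, for the 6 tested members whose group means spanned at least 1 on that scale. For FABP3 the nearest were AMPD3 (0.22), ITGB6 (0.22) and KLHL40 (0.23), of which AMPD3 averaged 28.0 FPKM in IMPA, 33.0 FPKM in IMA and at most 0.0386 FPKM in the subcutaneous groups. For FABP4 they were IGFBP2 (0.22), MYOD1 (0.25) and ITGA4 (0.32), and MYOD1, a transcription factor of myoblasts, averaged 43.2 FPKM in IMPA, 26.1 FPKM in IMA and at most 0.00725 FPKM in the subcutaneous groups. For ANGPTL4 they were FTL (0.18), GPAT3 (0.19) and ERO1A (0.22), the second an enzyme of triglyceride synthesis that went from 1.23 to 4.05 FPKM and from 3.80 to 5.09 FPKM. CAV1 was closest to SIX4 (0.11), QKI (0.12) and FADS3 (0.13), and SLC27A4 to PSEN2 (0.14), ADAP1 (0.15) and LOC108638604 (0.15). CD36 had no close match, its nearest being DNAJA4 (0.35). The points are libraries of 4 separate groups, so likeness here reflects the order of the groups first.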

How the data were processed

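RNA of 20 cell samples was sequenced from strand-specific libraries. The authors aligned the reads to the goat genome (ARS1) with HISAT2 2.0.4 and deposited FPKM values per transcript, for which the methods name StringTie 1.3.1, Ballgown and Cuffdiff; no counts were used, so depth behind a value is unknown and a 0 cannot be told apart from a low level. FPKM was summed per symbol and tested as log2(FPKM + 1), without further scaling, for genes whose average across all libraries reached 1 FPKM, in limma 3.58.1 under R 4.3.3 with a variance trend. Stage and cell type comparisons used 10 libraries each and the interaction 20, and p-values were two-sided and adjusted by the Benjamini-Hochberg method over all 11432 genes. The methods name 5 goats and call the 5 samples of a group biological replicates, but no source ties a sample to a goat, and p-values measure the spread between these libraries. Without FABP4, 6 of 8 members were called between IMA and IMPA and 5 of 8 between SA and SPA.

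Members, lists and markers were chosen with earlier results of these data known. The genes named are the members, listed genes with a called log2 change of at least 1 in a stage comparison, the most abundant gene of each role, and the 3 nearest genes in pattern (for CD36 only the nearest is reported here); CAV2, ACSL3 and ACSL5 were picked with their values in view. Alternatives were another pseudocount, filter, scaling, variance model, set of libraries, unit (transcript) and the replicate number as a block. The steps were tested on simulated data. Descriptions and figures were made in Python 3.11.15 with pandas 2.3.3, numpy 2.4.6 and matplotlib 3.10.9. The lncRNA tables were not used here. The reference at hand is of another build (ARS1.2), so it served for names and the order of neighbouring genes, and no coordinates are given.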

Additional observations from a re-analysis of the deposited data

Results flagged for a closer look

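The change with induction differed between intramuscular and subcutaneous cells for 8 of the 9 tested members in limma's test of the interaction, beside 55.3% of all genes tested. Given as the intramuscular minus the subcutaneous log2 change, the differences were 1.54 for ACSL1, 1.41 for CD36, 0.75 for FABP3, 0.70 for ANGPTL4, 0.23 for CAV1, -0.49 for SLC27A4 (not called with its most abundant transcript, nor was that of CAV1), -0.77 for FABP4 and -1.04 for FABP5. With a pseudocount of 0.1 the difference of FABP4 was not called (limma adjusted p = 0.128), and that of CD36 was 1.32 (adjusted p = 9.76e-04). The difference of CAV1 was also not called without SPA1 and SA5 (limma adjusted p = 0.0616). CD36 and FABP4 averaged under 1 FPKM in both subcutaneous groups. For ACSL1 and FABP5 both stage comparisons were called, in opposite directions.

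A library stood apart from the other 4 of its group in 2 of 40 groups of values, both of them CD36 at day 0: IMPA5 with 0.470 FPKM and SPA1 with 0.117 FPKM. Chance gives about 1 in 20 such groups. Both were the highest of their group and both lay below every induced library of their cell type.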

How the results depend on the processing

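Of the values of single members under the alternatives, 1043 kept their direction and side of the threshold, 11 lost their call, 1 gained it and 2 changed sign. Those that changed sign were not called in any fit: FABP4 between SA and SPA (-0.0275 without SA1, the lowest of a range up to 0.12 over the libraries left out) and SLC27A4 between SA and SPA (0.0311 without SPA2, the highest of a range from -0.11). With the most abundant transcript of each gene, 3 members were called between SA and SPA in place of 5. Leaving out each library in turn gave 7 called members in the intramuscular comparison and 5 to 6 in the subcutaneous one, where the sixth was FABP3 without SA3. It gave 8 for the interaction, 8 between IMPA and SPA and 9 between IMA and SA. Scaling moved the split of calls over all genes: 50.1% of those called between SA and SPA were higher in SA, against 36.6% with each library rescaled to the same sum, and 37.5% of the interaction calls were positive, against 48.0% with quantile normalization. Same-numbered libraries did not deviate together throughout (correlations from -0.242 to 0.122), so the numbers were not taken as pairs, and with the replicate number as a block 7, 5, 8, 8 and 9 members were called in these comparisons, as without it. FABP4, CPT1B and CD36 in subcutaneous cells, CD36 in IMPA and LPL lie near or under 1 FPKM, where the unknown depth limits any fold.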
